A study of Mus musculus with 8 samples.

Results

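The genes described here are 10 regulators of entry into and exit from the cell cycle, namely the inhibitors Cdkn1a, Cdkn1b, Cdkn2a, Cdkn2b and Cdkn2c, the D-type cyclins Ccnd1, Ccnd2 and Ccnd3, and the stress-linked genes Foxo3 and Trp53inp1. They were taken by symbol, and all 10 were found among the 45777 genes of the expression table and passed the filter on low counts. Total RNA depleted of ribosomal RNA was sequenced from mouse neural stem cells labelled SVZ-NSCs, that is, from the subventricular zone, a stem cell niche beside the lateral ventricle of the brain. The samples are S1PR1-deficient cells (genotype label S1pr1 deletion) given ApoM-HDL or ApoM+HDL, and control cells (genotype label WT) given ApoM-HDL or ApoM+HDL, so every group received high-density lipoprotein and none was untreated. S1PR1 is a receptor for sphingosine-1-phosphate, and apolipoprotein M carries that lipid on high-density lipoprotein. The sources used here give neither the way the receptor gene was deleted, nor the age or number of mice, nor the dose or length of treatment.

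The table names its 8 libraries by codes, GH, GV, CH and CV, with 2 libraries numbered 1 and 2 under each code. C was read as control by its first letter and G as S1PR1-deficient by elimination, since no sample's labels hold the codes. H and V match no label. The preparation each library received was therefore not assigned, and the second letter is used only as a code. The targeted gene does not back the reading of G. S1pr1 (sphingosine-1-phosphate receptor 1; GRCm38 chromosome 3, 115710433 to 115715072) had 23.2 and 21.2 CPM (read counts relative to the TMM-scaled library total) in the GH libraries, 22.2 and 22.4 CPM in GV, 25.4 and 23.2 CPM in CH and 20.7 and 16.02 CPM in CV. It averaged 22.3 ± 0.82 CPM in the G libraries and 21.3 ± 4.03 CPM in the C libraries (SD, n = 4 each; two-sided exact permutation test, p = 0.743, with 0.0286 the smallest p that 4 against 4 allows). By code, S1pr1 averaged 22.2 CPM in GH and 24.3 CPM in CH (log2 -0.13, edgeR adjusted p = 0.71), and 22.3 CPM in GV and 18.4 CPM in CV (log2 0.28, adjusted p = 0.0948). Within C it was higher in CH than in CV (log2 0.40, adjusted p = 0.0433), a spread that the test of 4 against 4 does not separate out. Averaged over H and V, S1pr1 was thus not lower in the libraries coded G, and under H the lower mean in GH did not pass the test. The sources used here do not state which part of the gene was deleted. Every direction between G and C below is therefore one between library codes, and the genotype behind each code was not verified. The labels do not say whether replicates came from separate cultures or animals, and p-values measure only the spread between these libraries.

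Library totals lay between 39619305 and 45698186 counts. Markers of neural stem cells and astroglia were abundant in sum, with 4879 to 5346 CPM in G and 5610 to 5767 CPM in C libraries. Most of the sum came from Fabp7, Vim, Slc1a3 and Nes. Pax6 had 17.6 to 20.8 CPM and Hes5 1.25 to 3.29 CPM, and Gfap, the intermediate filament of astroglia, stayed at or below 0.852 CPM. The oligodendrocyte transcription factors Olig1 and Olig2 were also high (summed list 1451 to 1517 CPM in G and 1305 to 1749 CPM in C), while Sox10, a later marker of that lineage, had at most 2 counts. Microglial markers summed to at most 0.0662 CPM in G and 0.0771 CPM in C libraries, and Csf1r, Aif1 and Itgam had 0 counts in all, which allows up to 0.0757 CPM in the smallest library. The mural and fibroblast list summed to 0.851 to 1.40 CPM in G and 1.77 to 8.43 CPM in C, mostly from Acta2, with Pdgfrb and Col1a2 at 0. Neuroblast markers summed to 13.6 to 15.1 CPM in G and 17.2 to 19.5 CPM in C, ependymal markers to 16.2 to 18.8 CPM in G and 13.3 to 18.3 CPM in C, and endothelial markers to 0.881 to 1.26 CPM in G and 1.003 to 1.32 CPM in C. The neuroblast sum was mostly Tubb3 (10.7 to 16.7 CPM), while Dcx, Dlx1 and Dlx2 stayed at or below 2.09 CPM and Stmn2 had at most 2 counts. The ependymal sum was mostly Foxj1 (12.3 to 18.0 CPM), with Tmem212 at 0. RNA composition moved with the code: the 7SL genes Rn7s1 and Rn7s2 took 2.39% and 2.47% of counts in GH, 1.49% and 1.64% in GV, 3.39% and 3.17% in CH and 3.72% and 3.13% in CV. The nuclear RNA Malat1 took 1.01% and 1.05% in GH, 1.38% and 1.17% in GV, 0.822% and 0.858% in CH and 0.843% and 0.851% in CV. The part of these shifts in the results below was not tested, and in bulk RNA fewer cells of a type and less RNA per cell cannot be told apart.

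D-type cyclins bind the kinases Cdk4 and Cdk6 at the start of the cell cycle and help inactivate the retinoblastoma protein, which otherwise holds back E2F-driven genes of DNA replication. The inhibitors of the Ink4 family (Cdkn2a, Cdkn2b and Cdkn2c) block those kinases directly, whereas those of the Cip/Kip family (Cdkn1a and Cdkn1b) bind a wider range of cyclin and kinase pairs. Cdkn1a and Trp53inp1 are induced by p53, and Foxo3 is a transcription factor of the FoxO family linked to long-term maintenance of adult neural stem cells in the mouse.

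Cdkn1a lies on GRCm38 chromosome 17 (29090976 to 29100727, plus strand) and has 2 listed transcription starts. Their RefSeq windows (GRCm38.p6, 250 bases before to 50 after the start, 5′ to 3′) are printed because Cdkn1a is a p53 target and was called between G and C. The upper window, chr17:29090729-29091028, holds 1 p53 site (capitals), found as a pair of adjoining consensus elements with at most 1 mismatch outside the fixed C and G of each, and beginning 51 bases before the start. The lower window, chr17:29093519-29093818, holds 2 GC boxes (GGGCGG on either strand, capitals). Of 32851 such windows of all genes, 0.067% held the p53 site and 35.7% a GC box.

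Cdkn1a, upstream start: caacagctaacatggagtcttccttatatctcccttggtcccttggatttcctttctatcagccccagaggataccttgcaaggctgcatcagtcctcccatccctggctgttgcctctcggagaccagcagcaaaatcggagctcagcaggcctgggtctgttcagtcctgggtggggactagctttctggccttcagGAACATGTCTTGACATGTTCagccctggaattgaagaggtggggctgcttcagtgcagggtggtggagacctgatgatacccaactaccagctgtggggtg
Cdkn1a, downstream start: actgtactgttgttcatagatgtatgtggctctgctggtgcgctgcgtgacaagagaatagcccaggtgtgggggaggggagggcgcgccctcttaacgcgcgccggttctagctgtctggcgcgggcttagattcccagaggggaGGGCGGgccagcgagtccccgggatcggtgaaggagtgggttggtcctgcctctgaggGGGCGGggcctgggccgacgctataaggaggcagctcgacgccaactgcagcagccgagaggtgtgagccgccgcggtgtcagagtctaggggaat

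Cdkn2a lies on chromosome 4 (89274471 to 89294653, minus strand) and encodes 2 unrelated proteins, Arf from the upstream start and p16 Ink4a from the downstream one. The counts are per gene and do not separate these products, which is why both windows are shown. The upstream window, chr4:89294570-89294869 on the minus strand, holds 3 GC boxes (capitals). The downstream window, chr4:89282143-89282442 on the minus strand, holds 1 GC box and 1 E2F match (TTTNGCGC on either strand, capitals), which 1.38% of all windows hold. In these 4 windows no match overlapped another, and none held a TATA box (TATAAA), an E-box (CACGTG), a forkhead site (GTAAACA) or a CRE (TGACGTCA), which 13.6%, 7.15%, 3.65% and 1.79% of all windows hold. A match is a description of letters and not a measured binding site.

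Cdkn2a, upstream start: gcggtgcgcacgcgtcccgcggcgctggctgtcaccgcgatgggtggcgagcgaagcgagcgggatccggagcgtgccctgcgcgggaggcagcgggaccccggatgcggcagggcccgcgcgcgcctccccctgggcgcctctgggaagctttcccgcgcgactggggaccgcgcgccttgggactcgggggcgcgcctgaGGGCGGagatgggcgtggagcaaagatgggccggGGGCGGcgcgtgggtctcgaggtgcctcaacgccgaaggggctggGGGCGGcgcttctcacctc
Cdkn2a, downstream start: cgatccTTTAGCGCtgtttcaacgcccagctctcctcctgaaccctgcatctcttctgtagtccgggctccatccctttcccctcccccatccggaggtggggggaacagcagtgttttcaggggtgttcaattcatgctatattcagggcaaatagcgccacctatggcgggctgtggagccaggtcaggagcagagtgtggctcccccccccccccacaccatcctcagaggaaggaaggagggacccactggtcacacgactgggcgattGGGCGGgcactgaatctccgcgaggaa

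Windows were listed for 7 of the 10 genes. Ccnd1 lies on chromosome 7 (144929931 to 144939925), Ccnd2 on chromosome 6 (127125162 to 127152193), Ccnd3 on chromosome 17 (47505051 to 47599691) and Trp53inp1 on chromosome 4 (11156431 to 11174379). Cdkn1b lies on chromosome 6 (134920401 to 134925513), Cdkn2b on chromosome 4 (89306299 to 89311039), Cdkn2c on chromosome 4 (109660876 to 109667189) and Foxo3 on chromosome 10 (42181841 to 42276755). Exons of Ccnd1, Ccnd2 and Ccnd3 share 1100, 372 and 361 bases with the opposite-strand genes LTO1, Gm43126 and Bysl in the GENCODE M21 annotation, Ccnd2 shares a further 368 bases with the antisense gene 9330179D12Rik, and Cdkn1a shares 273 bases with AC167363.2. The library kit marks strand, but the sources used here do not state whether the counting used it, so small differences of these genes are uncertain.

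Per exon length, the D-type cyclins spanned the whole range. Ccnd1, the cyclin most closely tied to growth factor signals, was the most abundant member at 406 ± 10.99 CPM per kb of exon (SD, n = 8 libraries), and Ccnd3 the least abundant at 4.37 ± 0.32 CPM per kb. Ccnd2, the cyclin typical of neural progenitors, followed Ccnd1 at 123 ± 8.86 CPM per kb. Cdkn1a was the most abundant inhibitor at 64.1 ± 4.52 CPM per kb, and its lowest library (58.8) stood above the highest of Cdkn2c (56.1), which averaged 52.1 ± 2.85. The ranges of Cdkn2c and Trp53inp1 (44.7 ± 7.34 CPM per kb) overlapped, as did those of neighbours among Cdkn2a (20.02 ± 2.16), Cdkn1b (17.0 ± 0.573) and Foxo3 (15.2 ± 1.19). Cdkn2b, at 7.58 ± 1.37 CPM per kb, lay apart from Foxo3 above it and Ccnd3 below it. In raw counts the members ran from 328 for Cdkn2b in GV1 to 87860 for Ccnd1 in CH2, so that counting error is smallest for the cyclins Ccnd1 and Ccnd2.

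**Figure D1:**
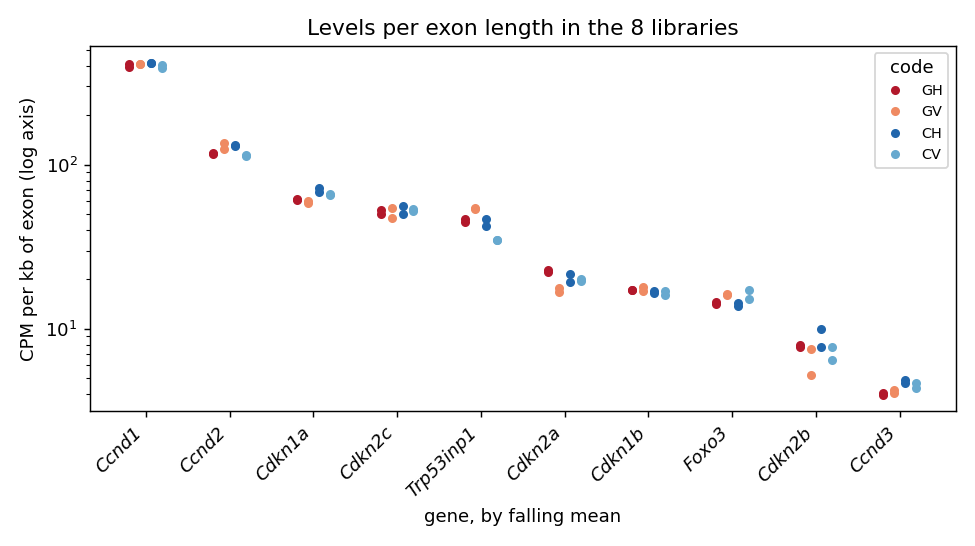
Level of each gene in CPM per kb of exon (vertical log axis), with 1 point per library coloured by code and the genes ordered by falling mean over 8 libraries. Ccnd1 stands above all others at 406 CPM per kb on average and Ccnd3 lowest at 4.37.

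Trp53inp1, whose product promotes p53-linked arrest and autophagy, differed most among the members. It had 304 and 289 CPM in GH, 346 and 351 CPM in GV, 273 and 301 CPM in CH and 225 and 227 CPM in CV. The GV libraries were the highest of all and the CV libraries the lowest, while GH and CH overlapped in the middle. Under V, Trp53inp1 averaged 349 ± 3.37 CPM in GV and 226 ± 1.42 CPM in CV (SD, n = 2 each), a 1.55-fold difference (log2 0.63 ± 0.061 SE, edgeR adjusted p = 0.00011). Under H the corresponding log2 difference was 0.05 ± 0.061 (adjusted p = 0.815), with averages of 297 ± 10.1 CPM in GH and 287 ± 19.9 CPM in CH.

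The H and V libraries were ordered in opposite ways for Trp53inp1 in C and in G. Within C it was 1.27-fold higher under H (log2 0.35 ± 0.061, edgeR adjusted p = 0.00547). Within G the log2 difference of H minus V was -0.23 ± 0.061 (edgeR adjusted p = 0.0811), which passed without the filter (0.0174) and with DESeq2 (0.00163), in a range up to 0.469 over 14 alternatives. The difference between these effects, G minus C, was -0.58 ± 0.086 on the log2 scale and passed the test (adjusted p = 0.00673). The call within C did not hold without CH2 (adjusted p = 0.0657) or without CV2 (0.0605), over a range of 5.1e-07 to 0.0657 across 14 alternatives. The difference of the effects stood at adjusted p = 0.0509 without GH2, the highest of 13 alternatives that began at 1.2e-09. The call of GV over CV passed in all 14 of its alternatives, with adjusted p between 1.0e-23 and 0.00338. Malat1 and the 7SL genes were also most extreme in GV, as given above. Within C the oligodendrocyte list summed to 1382 and 1305 CPM in CH and 1749 and 1718 CPM in CV, and 3 of its 5 tested genes were lower in CH (Olig1, Olig2 and Mbp) and 0 higher. Olig1 had a log2 difference of -0.45 (edgeR adjusted p = 0.00112) and Olig2 of -0.21 (0.0214), and both passed for the difference of effects, as positive (0.44 and 0.25, adjusted p = 0.0134 and 0.0487). Of the 2 tested genes of the mural list, the smooth muscle gene Acta2 was higher in CH (6.90 CPM in CH and 1.71 CPM in CV), while Rgs5 was near 0 (0.0449 CPM in CH and 0.0643 CPM in CV) and did not pass. The part of these shifts in the Trp53inp1 differences was not tested.

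Averaged over H and V, 3 of the 10 members passed between G and C, where 19.2% of the 17644 genes tested did (edgeR quasi-likelihood, Benjamini-Hochberg adjusted p under 0.05), 9.03% higher and 10.2% lower in G. With library totals in place of TMM scaling, 70.9% of the called genes were higher in G, against 47.1% in the main fit. The members that passed were Trp53inp1, which was 1.26-fold higher in G (log2 0.34 ± 0.043, adjusted p = 0.00049), and Cdkn1a and Ccnd3, which were lower. For Trp53inp1 the average joins log2 differences of 0.63 under V and 0.05 under H, and its G and C libraries overlapped. The median log2 difference of the 10 members was -0.01, as was that of all genes tested.

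Cdkn1a, the p53-inducible inhibitor p21, had 216 and 219 CPM in GH, 209 and 214 CPM in GV, 256 and 242 CPM in CH and 233 and 234 CPM in CV. Every G library was below every C library. The average was 214 ± 4.27 CPM in G and 241 ± 10.5 CPM in C (SD, n = 4 each), and Cdkn1a fell by 0.17 ± 0.039 on the log2 scale, 0.89 of its level in C (edgeR adjusted p = 0.0109). The call was lost without GH1 (adjusted p = 0.0717) and with library totals in place of TMM (0.055), within a range of 0.0006 to 0.0717 over 13 alternatives. The difference did not pass under H alone (log2 -0.19 ± 0.055, adjusted p = 0.112) or under V alone (-0.14 ± 0.055, 0.079).

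Ccnd3, the D-type cyclin with the lowest level per exon length here, had 35.0 and 36.0 CPM in GH, 37.3 and 35.9 CPM in GV, 42.6 and 40.9 CPM in CH and 38.2 and 40.9 CPM in CV. Its G libraries also lay below all of its C libraries, by a narrow gap of 37.3 CPM in the highest G library against 38.2 CPM in the lowest C library. The log2 difference was -0.17 ± 0.051 (edgeR adjusted p = 0.033). It did not pass without CH1 (0.107), CV2 (0.129), GH1 (0.146), GH2 (0.087), GV1 (0.0511) or GV2 (0.0782), without the filter on low counts (0.0714) or with library totals (0.14), which gives a range of 0.0414 to 0.146 over 13 alternatives. Complete separation of the 4 G from the 4 C libraries was seen for 2 of the 10 members, and for 13.1% of all genes tested.

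**Figure D2:**
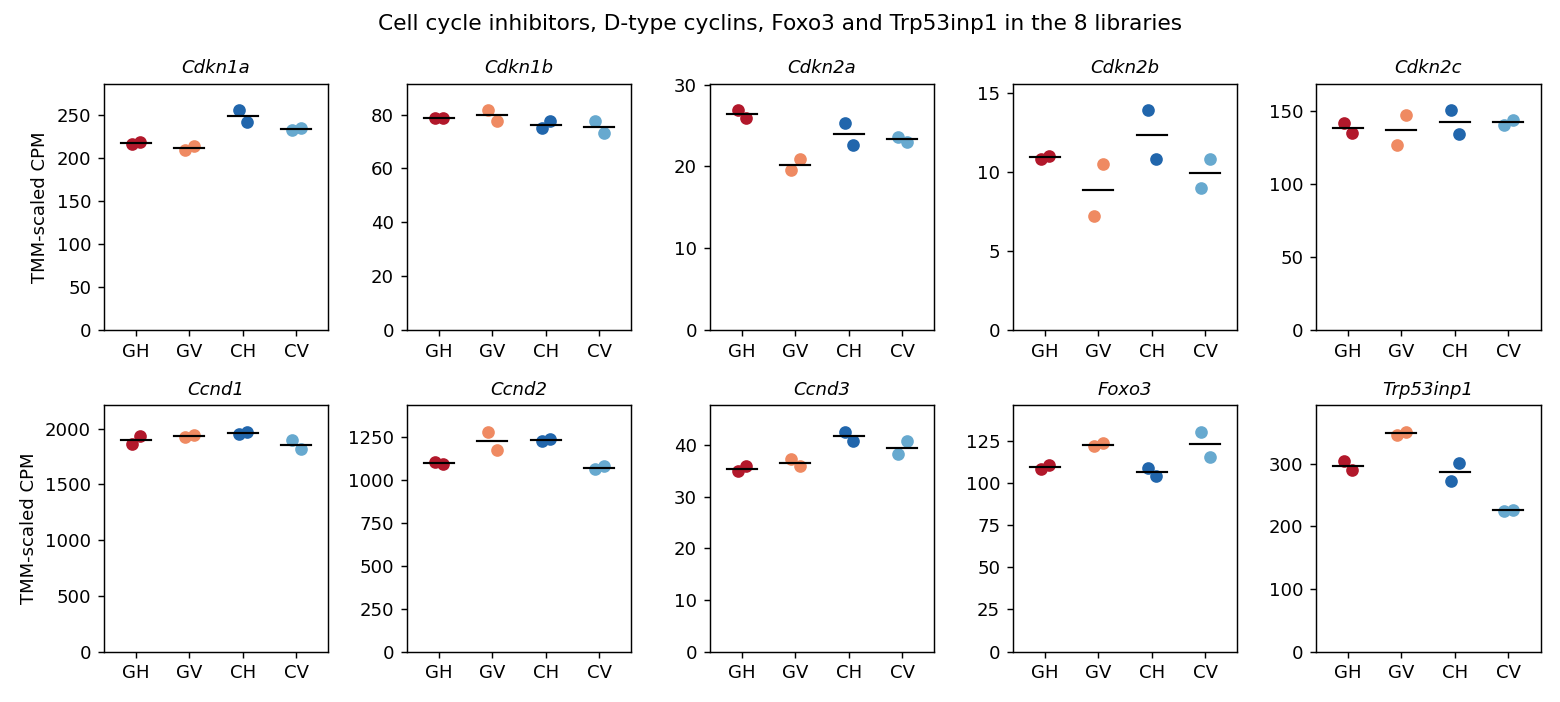
TMM-scaled CPM of each member in the 8 libraries, with 1 panel per gene, 1 point per library, the codes GH, GV, CH and CV along the horizontal axis and a black line at the mean of 2 libraries. Trp53inp1 is highest in GV (349 CPM) and lowest in CV (226 CPM), and all 4 G points of Cdkn1a lie below its 4 C points.

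Ccnd2 crossed over between the codes. It had 1107 and 1092 CPM in GH, 1280 and 1172 CPM in GV, 1228 and 1238 CPM in CH and 1062 and 1080 CPM in CV. The GV and CH libraries were high and the GH and CV libraries low, with no overlap between those pairs of codes. The share of all genes that separate by this grouping was not counted. Under V it was 1.14-fold higher in GV (log2 0.19 ± 0.054, edgeR adjusted p = 0.0191), and within C it was 1.15-fold higher in CH than in CV (log2 0.20 ± 0.054, adjusted p = 0.0332). Under H the log2 difference of G minus C was -0.17 ± 0.054 (adjusted p = 0.172), and within G that of H minus V was -0.16 ± 0.054 (adjusted p = 0.179), with DESeq2 at 0.0209, the value without GV2 at 0.0221 and alternatives up to 0.618.

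The difference between the H minus V effects on Ccnd2, G minus C, was -0.36 ± 0.076 on the log2 scale (edgeR adjusted p = 0.0202), negative as for Trp53inp1. This difference did not pass without CH2 (adjusted p = 0.063), CV1 (0.0574), CV2 (0.0826), GH1 (0.084) or GH2 (0.0975), in a range of 2.9e-05 to 0.0975 over 13 alternatives. The call under V was lost without CV1 (0.0972), CV2 (0.0798) or GV1 (0.09), with 0.00043 the lowest and 0.0972 the highest of 14 alternatives. The call within C was lost without CH1 (0.0696), CH2 (0.158), CV1 (0.141), CV2 (0.141), GH1 (0.0645) or GH2 (0.0687), with alternatives from 0.00139 to 0.158. With the library number as a replicate block it stood at 0.0502. The oligodendrocyte marker shifts and the Acta2 difference within C given for Trp53inp1 also moved with these Ccnd2 calls, and their part was not tested.

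Under V, 2 of the 10 members (Trp53inp1 and Ccnd2) passed between GV and CV, beside 25% of all genes tested, 11.6% higher and 13.4% lower in GV. Under H none of the 10 passed with edgeR, beside 1.81% of all genes, 0.759% higher and 1.05% lower in GH, although DESeq2 called Cdkn1a (adjusted p = 0.0157, the lowest over 14 alternatives that reached 0.522) and Ccnd2 (0.0426, in a range up to 0.549). At an unadjusted p under 0.05 the edgeR test under H reached 2401 genes, Cdkn1a, Ccnd2 and Ccnd3 among them. DESeq2 called 567 genes in all under H, Cdkn1a and Ccnd2 among them. With library totals the share of called genes higher in G was 65.5% under V and 58.7% under H, against 46.5% and 41.9% in the main fit. Comparisons under V and under H use different libraries, but each shares libraries with the H minus V comparisons.

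**Figure D3:**
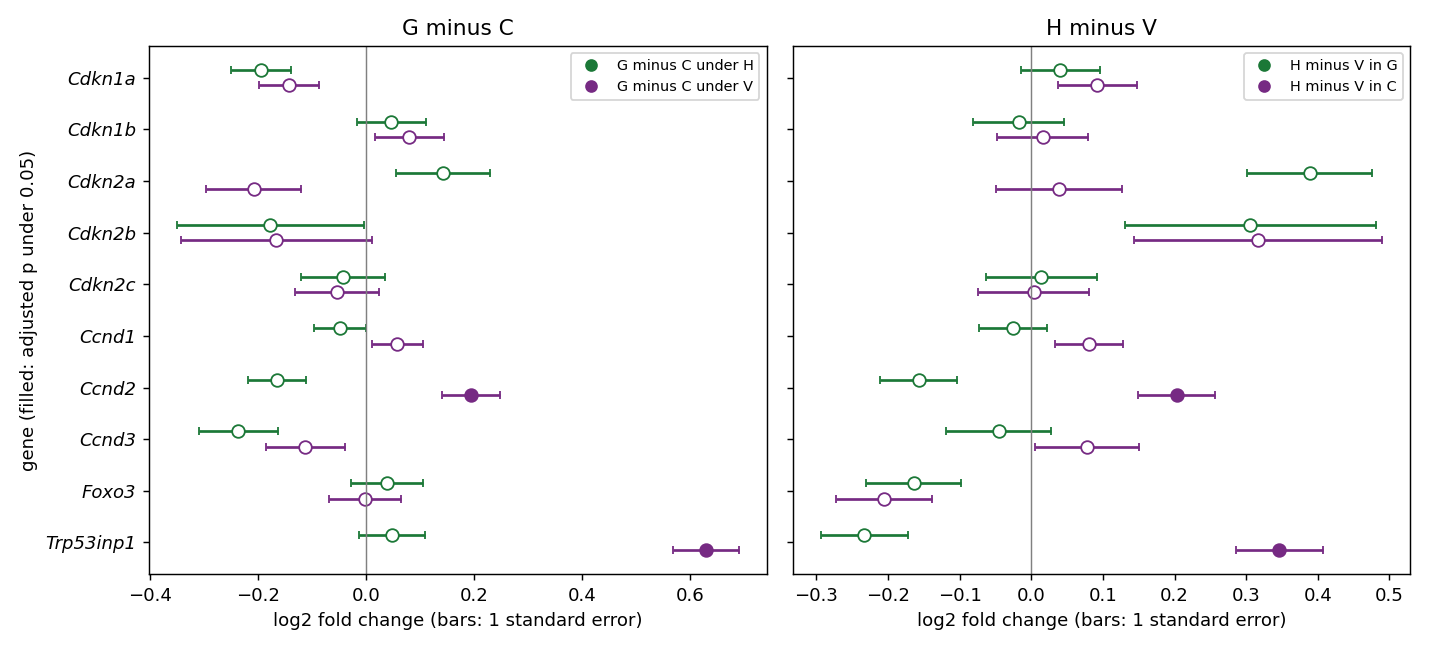
Log2 fold change of G minus C (left) and H minus V (right) for each gene, with bars of 1 standard error, green for the H libraries (left) or the G libraries (right), purple for the V libraries (left) or the C libraries (right), and filled points where the edgeR adjusted p is under 0.05. The filled points are Trp53inp1 and Ccnd2 under V on the left and Trp53inp1 and Ccnd2 in C on the right.

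Between H and V averaged over G and C, 0 of the 10 members passed with edgeR, beside 3.19% of all genes, 1.43% higher and 1.75% lower under H, and 3421 genes, 3 of them members, had an unadjusted p under 0.05. Foxo3 came nearest. It had 108 and 111 CPM in GH, 121 and 123 CPM in GV, 109 and 104 CPM in CH and 130 and 115 CPM in CV. All 4 H libraries lay below all 4 V libraries, which was the case for this member alone of the 10, while 5.24% of all genes tested had H and V libraries that did not overlap in either direction. Foxo3 averaged 108 ± 2.75 CPM under H and 123 ± 6.17 CPM under V (SD, n = 4 each), a log2 difference of -0.18 ± 0.047 (edgeR adjusted p = 0.0535), which DESeq2 called (0.0058), as did edgeR without the filter (0.0214) or with library totals (0.0275), in a range up to 0.223 over 13 alternatives. With library totals 25.4% of the genes called between H and V were higher under H, against 45.02% in the main fit.

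Within C, 2 of the 10 members passed between H and V, Trp53inp1 and Ccnd2, both higher in CH, beside 10.7% of all genes, 5.68% higher and 4.99% lower. The median log2 difference of the members was 0.08, and that of all genes -0.01. Foxo3 had a log2 difference of -0.21 ± 0.067 there (edgeR adjusted p = 0.0695, with DESeq2 at 0.0371 and alternatives up to 0.405). Within G, 0 of 10 passed with edgeR, beside 1.28% of all genes, 1.14% higher and 0.136% lower in GH. At an unadjusted p under 0.05 edgeR reached 4 members and 2607 of the 17644 genes in all. DESeq2 called 3 members (Trp53inp1, Ccnd2 and Cdkn2a) and 668 genes in all. For the difference of the H minus V effects, 2 of 10 passed (Trp53inp1 and Ccnd2, both negative), beside 7.35% of all genes, 3.93% positive and 3.41% negative. With library totals 72.3% of the genes called within G were higher under H, against 89.4%, and 40.6% of those called for the difference of effects were positive, against 53.5%.

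Cdkn2a, whose products restrain Cdk4 and Cdk6 and stabilise p53, showed its widest gap within G. It had 26.9 and 26.0 CPM in GH, 19.5 and 20.9 CPM in GV, 25.3 and 22.6 CPM in CH and 23.6 and 23.0 CPM in CV. The GH libraries were the highest and the GV libraries the lowest, and the C libraries lay between them. The log2 difference of H minus V within G was 0.39 ± 0.088 (edgeR adjusted p = 0.0502), just outside the threshold, and it passed with DESeq2 (0.0183), without the filter (0.0389) and without GV2 (0.0448), in a range up to 0.413 over 14 alternatives. The difference of the effects did not pass (0.35 ± 0.124, adjusted p = 0.102).

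Cdkn2b, a neighbour of Cdkn2a on chromosome 4 that inhibits the same kinases, was the most variable between replicates. It had 10.9 and 11.04 CPM in GH, 7.24 and 10.5 CPM in GV, 13.9 and 10.8 CPM in CH and 8.997 and 10.8 CPM in CV. Its H and V libraries overlapped, and the log2 difference of H minus V was 0.31 ± 0.123 (edgeR adjusted p = 0.189), with a range of 0.0376 to 0.467 over 13 alternatives. The log2 difference moved most when a GV library was left out, and was 0.19 without GV1 (adjusted p = 0.467), the lowest library, and 0.46 without GV2 (0.0376). Cdkn2c, another inhibitor of Cdk4 and Cdk6, had 142 and 135 CPM in GH, 127 and 147 CPM in GV, 151 and 134 CPM in CH and 141 and 144 CPM in CV. Its G and C libraries overlapped, as did its H and V libraries, and its 7 log2 differences lay between -0.05 and 0.01, with standard errors up to 0.11 and no adjusted p below 0.602.

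Cdkn1b, the inhibitor p27, had 78.6 and 78.8 CPM in GH, 81.7 and 77.6 CPM in GV, 74.9 and 77.5 CPM in CH and 77.7 and 73.0 CPM in CV. The groups overlapped and the 7 log2 differences lay between -0.03 and 0.08, with standard errors up to 0.09 and adjusted p of 0.365 or more. Ccnd1 had 1860 and 1935 CPM in GH, 1924 and 1939 CPM in GV, 1952 and 1971 CPM in CH and 1894 and 1816 CPM in CV. Its groups overlapped as well, with log2 differences between -0.11 and 0.08, standard errors up to 0.067 and adjusted p of 0.323 or more. A p above the threshold does not show that these genes were equal between the codes.

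Among other genes linked to p53, 16 were examined, including the factor Trp53 itself. Within C, 6 were higher and 2 lower in CH, beside the 5.68% and 4.99% of all genes. Gadd45a, a stress gene of growth arrest, was higher by 0.62 ± 0.115 on the log2 scale (mean 15.1 CPM in CH and 9.81 CPM in CV, edgeR adjusted p = 0.00724), and the cyclin Ccng1 by 0.38 ± 0.062 (639 and 490 CPM, adjusted p = 0.00387). The death gene Bbc3 was lower by the log2 difference of -0.56 ± 0.125 (13.04 CPM in CH and 19.3 CPM in CV, adjusted p = 0.0164). For Trp53 itself the log2 difference was -0.36 ± 0.074 (38.0 CPM in CH and 48.8 CPM in CV, adjusted p = 0.0116). The list's median log2 difference was 0.07, against -0.01 for all genes tested. Within G 0 of the 16 passed with edgeR, beside 1.28% of all genes. Of the 16, 2 had an unadjusted p under 0.05 there and DESeq2 called 2, beside 2607 and 668 genes in all.

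For the difference of the H minus V effects, 3 of the 16 p53-linked genes passed as negative and 3 as positive, beside 3.41% and 3.93% of all genes. The receptor gene Eda2r (-0.57 ± 0.093, edgeR adjusted p = 0.00977) and Mdm2, the ubiquitin ligase of p53 (-0.43 ± 0.082, 0.014), had the sign of Trp53inp1, while Bbc3 (0.72 ± 0.177, 0.0329) and Trp53 (0.51 ± 0.106, 0.0185) had the opposite sign. Cdkn1a, the best known p53 target among the 10 members, did not pass within C (log2 0.09 ± 0.055, adjusted p = 0.331) or for the difference of effects (-0.05 ± 0.078, 0.75). Between GV and CV, 4 of the 16 were higher and 4 lower, beside 11.6% and 13.4% of all genes, among them Eda2r, higher by 0.53 ± 0.066 (244 CPM in GV and 169 CPM in CV, adjusted p = 0.00029), and Trp53, at -0.64 ± 0.075 (31.4 CPM in GV and 48.8 CPM in CV, adjusted p = 0.00022).

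**Figure D4:**
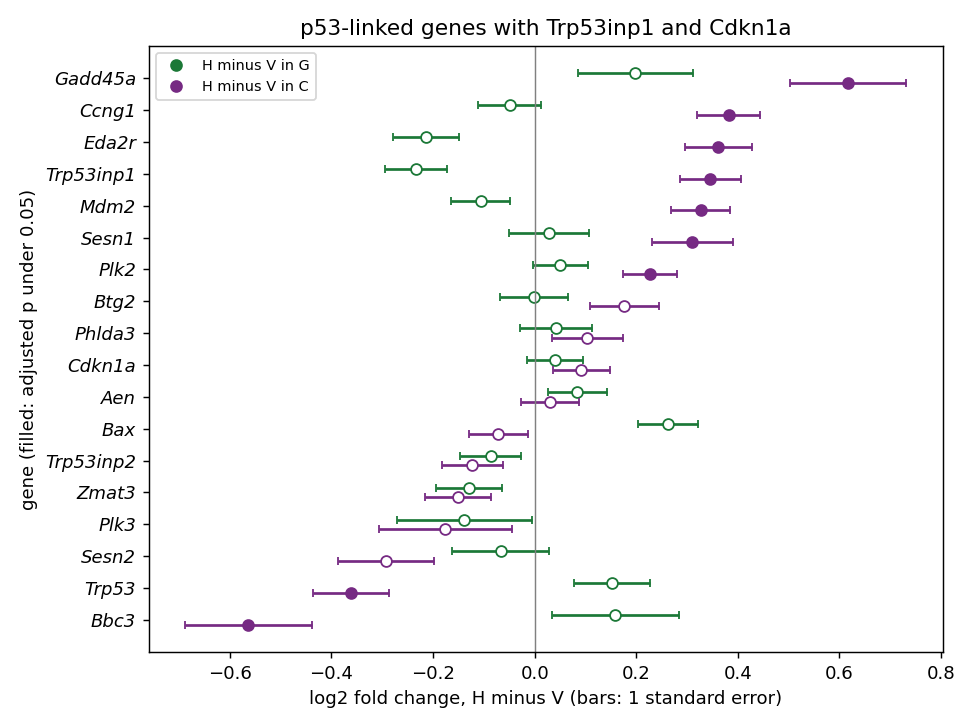
Log2 fold change of H minus V in the G libraries (green) and the C libraries (purple) for 16 p53-linked genes with Trp53inp1 and Cdkn1a, with bars of 1 standard error and filled points where the edgeR adjusted p is under 0.05. In C the filled points run from Bbc3 at -0.56 to Gadd45a at 0.62, and no point is filled in G.

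Some partners of the members in early cell cycle control passed between G and C, where 9.03% of all genes were higher and 10.2% lower in G. Rb1, the retinoblastoma gene, was the one of 6 other inhibitors and pocket proteins to pass between G and C, higher in G by 0.36 ± 0.058 on the log2 scale (edgeR adjusted p = 0.00177), with means of 48.0 CPM in GH, 57.3 in GV, 40.8 in CH and 41.0 in CV. Of 7 kinases and cyclins acting before DNA replication, Cdk6 was higher in G (0.46 ± 0.10, adjusted p = 0.00768) and Cdk4 was lower (-0.14 ± 0.039, 0.0281). Of 9 E2F factors, 2 were lower in G and 0 higher, namely E2f4 (-0.35 ± 0.074, adjusted p = 0.0065) and E2f1 (-0.27 ± 0.077, 0.0298). DESeq2 called 1 of the 9, and with lists this short these counts are close to the share of all genes. Under V 5 of the 9 E2F factors were lower in GV, beside 13.4% of all genes, and their median log2 difference was -0.30, against -0.02 for all genes tested. Under H 0 of the 9 passed with edgeR, beside 1.81% of all genes, and 0 with DESeq2. Of the 9, 0 had an unadjusted p under 0.05 there, beside 2401 genes in all, and their median was -0.01. Of the same 9, 4 were lower and 1 higher in CH than in CV, beside 4.99% and 5.68% of all genes, with a median of -0.21. Between GH and GV 0 of the 9 passed with edgeR, beside 1.28% of all genes, and 0 with DESeq2, with a median of 0.06. At shares this low, 0 of 9 does not show that these genes were unchanged. For the difference of the H minus V effects 0 of the 9 passed with edgeR, beside 7.35% of all genes, and DESeq2 called 1. Of the 9, 5 had an unadjusted p under 0.05 there, beside 4285 genes in all. Their median was 0.33, against 0.02 for all genes tested. The comparisons of GV and of CH with CV share the CV libraries.

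Of 14 markers of cycling cells, 8 were lower in G and 0 higher, beside 10.2% and 9.03% of all genes, and their median log2 difference was -0.16. They included the replication helicase subunits Mcm7 (-0.22 ± 0.039, edgeR adjusted p = 0.00308) and Mcm3 (-0.21 ± 0.039, 0.00379) and the mitotic kinases Aurkb (-0.22 ± 0.044, 0.00604) and Cdk1 (-0.19 ± 0.042, 0.0082). Under V 7 of the 14 were lower in GV and 0 higher, beside 13.4% and 11.6% of all genes, with a median of -0.21. Under H 0 of the 14 passed with edgeR, beside 1.81% of all genes, and 0 with DESeq2. Of the 14, 1 had an unadjusted p under 0.05 there, beside 2401 genes in all, and their median was -0.09. At a share this low, 0 of 14 does not show that these genes were unchanged under H. For the difference of the H minus V effects 1 of the 14 passed with edgeR, as positive, beside 3.93% of all genes. DESeq2 called 4 of them there, beside 2022 genes in all, and their median was 0.13. The summed level of the 14 markers was 3387 to 3430 CPM in G and 3621 to 3734 CPM in C libraries. Of 12 FoxO factors and targets, 6 were higher and 1 lower in G, beside 9.03% and 10.2% of all genes. Under V 5 were higher and 1 lower, beside 11.6% and 13.4%, with a median of 0.16. Under H 1 was higher and 0 lower, beside 0.759% and 1.05%, with a median of 0.14, and DESeq2 called 3. Averaged over H and V, the ubiquitin ligase Fbxo32 was higher by 0.72 ± 0.069 (edgeR adjusted p = 8.1e-05) and the thioredoxin-binding Txnip by 0.48 ± 0.095 (0.00495). Irs2, an insulin receptor substrate, was lower (-0.30 ± 0.063, 0.00642). Of 9 markers of neural stem cells and astroglia, 2 were lower in G, Fabp7 (log2 -0.31, edgeR adjusted p = 0.00227) and Nes (-0.28, 0.00128), and 1 was higher, Sox9 (0.25, 0.0113). Of 4 tested neuroblast markers, 1 was lower in G, the tubulin Tubb3 (-0.38, adjusted p = 0.00983), and 0 were higher. The part of these marker shifts in the results on cell cycle genes was not tested.

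Over the 8 libraries, the member pair most alike was Cdkn1a and Ccnd3, with a Pearson correlation of log2 CPM of 0.90. The 3 genes most like Cdkn1a among all tested were Erf (0.99), Ace (0.99) and Junb (0.99). Those most like Ccnd2 were Golim4 (0.97), Rars2 (0.97) and Atp1b1 (0.97), and those most like Ccnd1 were Taf1d (0.95), Dnajc3 (0.95) and 9430060I03Rik (0.94). The points share the 4 codes and their scaling, and with 8 libraries and 17644 genes, values this high are picked from many.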

How the data were processed

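The deposited table gives a whole-number read count for each gene and library, per the file headers, and 16 further value columns (FPKM and TPM) were not used. Per the submitters' processing notes, the tools were StringTie 2.1.3b, HISAT2 2.1.0, Trimmomatic and bcl2fastq 2.20.0, and the builds GRCm38 and mm10, and how whole counts were made by the authors is not given in the sources used here. Library codes were read as given in the report. Genes were kept with edgeR's filterByExpr over the 4 codes (17644 of 45777), scaled with TMM and tested with edgeR 4.0.16 in R 4.3.3 (quasi-likelihood, 1 mean per code, all 8 libraries, 7 contrasts, Benjamini-Hochberg over all genes tested). Standard errors are the log2 fold change divided by the square root of the F statistic. The test was tried on simulated data with changes larger than those of the members, so the trial does not cover changes of their size. Alternatives were RLE size factors, no filter, DESeq2 1.42.0, a replicate block, the 4 libraries compared alone, leaving out each library, and, added after seeing the data, library totals. Members and lists were chosen with earlier results of these data known. Named genes were all 10 members and S1pr1 and, for each pathway list and contrast described, up to 4 genes past the threshold by size of change. CPM per kb divides TMM-scaled CPM by GENCODE M21 exon length, which is not the authors' annotation. Counting error alone underlies the limits given for 0 counts.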

Additional observations from a re-analysis of the deposited data

Results flagged for a closer look

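In 20 groups of 4 libraries (10 genes, G and C), 1 held a library far from the others: Cdkn2b in GV1, at 7.24 CPM, lay below the other 3 G libraries (10.5 to 11.04 CPM), with a gap of 0.858 of the group's range. Chance gives such a gap in about 1 in 20 groups.

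The effect of H over V differed between G and C for 2 members by the test of the difference itself, with log2 values of -0.58 for Trp53inp1 (edgeR adjusted p = 0.00673) and -0.36 for Ccnd2 (adjusted p = 0.0202).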

How the results depend on the processing

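Of 70 member and contrast pairs, 23 had an unadjusted p under 0.05 and 9 passed the adjusted threshold. None of the 23 changed sign under the alternatives run, and 2 of the 9, Trp53inp1 between G and C and between GV and CV, passed under every alternative. Of the other 47 pairs, 26 changed sign under at least one alternative and 0 passed under any. These 2 Trp53inp1 calls are not separate results, since the comparison of G and C includes the GV and CV libraries. Counts of called genes moved by over 1.5 times as follows. Without the filter they were 552 (G minus C under H), 1006 (H minus V) and 575 (H minus V in G), against 320, 562 and 226 in the main fit. With DESeq2 they were 567, 1132 and 668 for the same comparisons and 2022, against 1296, for the difference of effects. On the 4 libraries alone, H minus V in G gave 31, and with library totals 137. Leaving out 1 library gave 1585 to 3391 for G minus C, 45 to 415 under H, 1950 to 4444 under V, 96 to 1182 for H minus V, 255 to 2169 in C, 8 to 843 in G and 56 to 1450 for the difference of effects. A code left with 1 library is assumed to vary like the others. Library numbers showed no pairing in the values, with deviations of same-numbered libraries correlated between -0.04 and 0.04. Such correlations cannot show whether same-numbered libraries shared a culture or animal, which the labels do not give. With the number as a replicate block the counts that moved were 203 under H, 325 for H minus V and 137 in G, and of the members' calls Ccnd2 in C was lost. The causes of these moves were not tested.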
